A study of Pyrus pyrifolia with 12 samples.

Results

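This account covers the fruit skin of the pear variety SuCui NO.1, set against the skins of Akibae, Nijisseiki and CuiYu. A gene was a member when its read count in SuCui NO.1 differed from that in each of the 3 other varieties in the same direction. By that rule 1070 of 26307 genes tested were members, of 43732 genes in the table. The study sequenced the skin RNA of pears (Pyrus pyrifolia) to look into how russet forms on the fruit. Russet is a rough brown surface in which cork cells take the place of the smooth cuticle. Every library came from untreated, mature fruit grown in orchards of Yizheng, Jiangsu, with 3 biological replicates per variety. SuCui NO.1 was sampled 105 days after full bloom, Akibae at 120 days, Nijisseiki at 135 days and CuiYu at 105 days. Variety and harvest day therefore cannot be told apart in a comparison of SuCui NO.1 with Akibae or Nijisseiki, while CuiYu was taken at the same day. Fruits of a further variety, Chili, were not analysed here.

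The skin of a ripe pear is an epidermis covered by a cuticle of cutin and wax, or a cork layer whose walls carry suberin and lignin, above green parenchyma. Triterpenes are abundant in the wax of pome fruit, and the cells below keep chloroplasts, starch and sorbitol metabolism. Pear descends from an ancestor whose genome was duplicated, so many enzymes are encoded by several similar genes, and varieties can differ in which copy they transcribe.

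The 12 libraries held between 11981445 and 15136559 counted reads. The first 3 principal components of log2 CPM (CPM, read counts scaled to library size with TMM factors) carried 31.8%, 26.1% and 10.5% of the variance. The SuCui NO.1 libraries lay between 84.6 and 129.8 on the first, against -107.9 to -85.3 for Akibae and 63.1 to 69.2 for CuiYu. CuiYu stood apart on the second (-128.7 to -112.8). Nijisseiki replicate 1 stood apart from its own variety, at -25.6 on the first component against -89.1 and -87.2, so each count below that it moves by over 1.5 times is also given without it. Epidermis and cuticle markers summed to 131 to 241 CPM in SuCui NO.1, against 44.8 to 50.6 in Akibae, 67.1 to 232 in Nijisseiki and 612 to 653 in CuiYu. Of these 31 markers 17 were tested, and 0 differed between SuCui NO.1 and each other variety. Cork markers summed to 183 to 472 CPM in SuCui NO.1, against 291 to 351 in Akibae, 235 to 713 in Nijisseiki and 461 to 574 in CuiYu, and again 0 of the 16 tested were members. Markers of both skin tissues were thus detected in every variety. The epidermis set includes wax and cutin genes and the cork set suberin genes, so these sums are not independent of those gene lists below. In bulk skin, fewer cells of a type and less RNA per cell cannot be told apart.

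Compared with each of the other varieties, 436 genes were higher in SuCui NO.1 (1.66% of those tested) and 634 were lower (2.41%), by edgeR's quasi-likelihood test with a Benjamini-Hochberg adjusted p under 0.05 in all 3 pairs. Set against its own 3 others by the same rule, CuiYu had 555 higher and 604 lower genes, Akibae had 65 and 215, and Nijisseiki had 60 and 79. Against the mean of the other 3 varieties, each with equal weight, 2876 genes were higher in SuCui NO.1 (10.9%) and 1953 were lower (7.42%), and all 1070 members were among them. The median log2 difference from that mean was 0.04 over all genes tested. In 424 of the 436 higher genes and 606 of the 634 lower genes, no SuCui NO.1 library overlapped any of the other 9. Members were chosen for differing from each variety, so little overlap and large gaps follow in part from that choice. The share without overlap over all genes tested is not given here. Between SuCui NO.1 and the variety nearest to it, 370 higher and 550 lower genes differed by more than 1 on the log2 scale, and 160 and 230 by more than 3. The count of higher genes depended on single libraries: it was 735 without Nijisseiki replicate 1 (798 lower), 278 without CuiYu replicate 1 and 268 without CuiYu replicate 2. Without SuCui NO.1 replicate 1, 1795 genes were higher and 1197 lower than the mean. Leaving out each of the 12 libraries in turn, 172 higher and 373 lower genes kept their call every time. With the replicate number as a block in the fit, 339 higher and 555 lower genes kept their call, and a loss of that kind is given beside the genes it touches. The genes named below include the 10 largest gaps in each direction to the variety nearest to SuCui NO.1 in CPM. This choice required no overlap between SuCui NO.1 and the 9 other libraries. It was also limited to genes with a Swiss-Prot name other than a transposon or uncharacterised entry, 1 gene per entry. Genes without such a name were passed over here, including some with larger gaps. Values are CPM of the 3 libraries in replicate order unless a mean ± SD (n = 3 libraries) is given. Each p is the largest of the adjusted p-values of the 3 pairs, and each log2 difference is SuCui NO.1 minus the other variety ± SE. Where a call is given as lost without several libraries, these were left out 1 at a time.

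Among the higher genes with a Swiss-Prot name of this kind, the largest gap was that of gene16938 (chromosome 17, 4112813 to 4113937, minus strand), which encodes a short-chain dehydrogenase reductase 3b, of a family of NAD(P)-dependent oxidoreductases. It had 62.5, 124 and 22.1 CPM in the SuCui NO.1 libraries, against 0.154, 0.0798 and 0 in Akibae, 0, 0.217 and 0.0700 in Nijisseiki and 0.0696, 0.0753 and 0 in CuiYu. Every SuCui NO.1 library lay far above the others, and the mean was 729 times that of Nijisseiki (adjusted p = 0.00011). In FPKM, the authors' values per length, it averaged 63.9 FPKM in SuCui NO.1, against 0.0723 in Akibae, 0.0884 in Nijisseiki and 0.0445 in CuiYu. A putative disease resistance protein, gene34681 (chromosome 10, 1749016 to 1843920, minus strand), had 43.3, 39.99 and 24.8 CPM in the SuCui NO.1 libraries, against 0.154, 0.160 and 0 in Akibae, 0 in each library of Nijisseiki and 0 in each library of CuiYu. Its mean was 345 times that of Akibae (adjusted p = 0.00039), with no overlap.

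A (-)-germacrene D synthase gene on chromosome 12, gene31449, belonged to the genes read in SuCui NO.1 alone. Germacrene D synthases make a volatile sesquiterpene from farnesyl diphosphate. The gene had 24.4, 24.2 and 8.18 CPM in the SuCui NO.1 libraries, against 0 reads in all 9 libraries of the other varieties (18891684 to 18894813). Against a floor of 3 reads over the 3 libraries of a variety, SuCui NO.1 was at least 245-fold above Akibae (adjusted p = 0.0044). SCAR-like protein 1, gene30538, is related to plant proteins that activate actin nucleation. It lay on the same chromosome (15948566 to 15950744) and had 11.3, 10.04 and 6.74 CPM in the SuCui NO.1 libraries, against 0 reads in all 9 libraries of the other varieties, which made it at least 121-fold higher (adjusted p = 0.0027). A gene for a heme-binding-like protein at 2391962 to 2394509, gene23105, had 13.4, 7.06 and 4.59 CPM in the SuCui NO.1 libraries, against 0 in each library of Akibae, 0, 0 and 0.0700 in Nijisseiki and 0, 0.0753 and 0 in CuiYu (at least 108-fold, adjusted p = 0.0012). A gene listed at 0 in a variety may be silent there, missing from its genome or too different in sequence for its reads to be placed, and these cannot be told apart in counts.

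Rubisco activase 1, which frees Rubisco of bound sugar phosphates, was encoded by 2 of the members. On an unplaced scaffold, gene41301 had 87.03, 13.2 and 5.95 CPM in the SuCui NO.1 libraries, against 0.0771, 0.0798 and 0 in Akibae, 0 in each library of Nijisseiki and 0.278, 0.151 and 0.147 in CuiYu (adjusted p = 0.0038), and its mean was 184 times that of CuiYu. On chromosome 4 (8346071 to 8349017), gene39096 had 119, 15.8 and 7.68 CPM in the SuCui NO.1 libraries, against 0 in each library of Akibae, 0 in each library of Nijisseiki and 0.418, 2.03 and 0.885 in CuiYu. Neither gene overlapped between SuCui NO.1 and the rest, although SuCui NO.1 replicate 1 held most of the signal in both. The adjusted p of gene39096 was 0.028, and its call was lost without CuiYu replicates 1, 2 or 3 (adjusted p from 0.075 to 0.099) or with the replicate block (adjusted p = 0.07). Histidinol-phosphate aminotransferase, gene15466 (chromosome 12, 1956531 to 1972850, minus strand), catalyses a step of histidine synthesis and had 17.4, 25.1 and 27.1 CPM in the SuCui NO.1 libraries, against 0.154, 0.319 and 0.0750 in Akibae, 0.261, 0.0723 and 0.210 in Nijisseiki and 0.348, 0.151 and 0 in CuiYu (fold over Akibae 127, adjusted p = 0.00015). Siroheme synthase 2, gene6901 (chromosome 7, 1415714 to 1418578, minus strand), serves the cofactor of nitrite and sulfite reductases. It averaged 7.41 ± 2.62 CPM in SuCui NO.1, against 0.0789 ± 0.0798 in Akibae, 0.0757 ± 0.0707 in Nijisseiki and 0.0251 ± 0.0435 in CuiYu, and the ratio to Akibae, which had few reads, was 94.8 with a 95% counting interval of 32.1 to 462 (adjusted p = 0.0011). The chloroplast signal recognition particle subunit SRP54, gene29924 (chromosome 3, 14552080 to 14556720, minus strand), helps to deliver light-harvesting proteins to thylakoids. It averaged 8.90 ± 2.29 CPM in SuCui NO.1, against 0.103 ± 0.0444 in Akibae, 0.101 ± 0.0390 in Nijisseiki and 0.0251 ± 0.0435 in CuiYu (adjusted p = 0.0001).

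DMR6-like oxygenase 1, which hydroxylates salicylic acid in Arabidopsis, was the entry of gene39725 (chromosome 10, 3761198 to 3762602, minus strand). This gene had 47.7, 26.8 and 19.8 CPM in the SuCui NO.1 libraries, against 0.154, 0.0798 and 0.0750 in Akibae, 0.609, 0 and 0.0700 in Nijisseiki and 0.139, 0.151 and 0.0737 in CuiYu. The SuCui NO.1 libraries were all above the rest, with a mean 139 times that of Nijisseiki (adjusted p = 0.00026). It closed a run of 3 neighbouring members on chromosome 10 between 3730164 and 3762602 that were all higher in SuCui NO.1. With the 11 genes of this entry added up, the level was 54.6 ± 26.2 CPM in SuCui NO.1, against 0.356 ± 0.0123 in Akibae, 0.596 ± 0.686 in Nijisseiki and 0.279 ± 0.118 in CuiYu. That sum was also higher than in each variety (adjusted p = 0.0011). The sum of short-chain dehydrogenase reductase 3b was called too, and no other gene carries the name of SCAR-like protein 1. Sums of the other higher entries named so far were not called. Histidinol-phosphate aminotransferase summed to 64.0 CPM in SuCui NO.1, against 61.7 in Akibae, 52.8 in Nijisseiki and 48.7 in CuiYu.

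**Figure D1:**
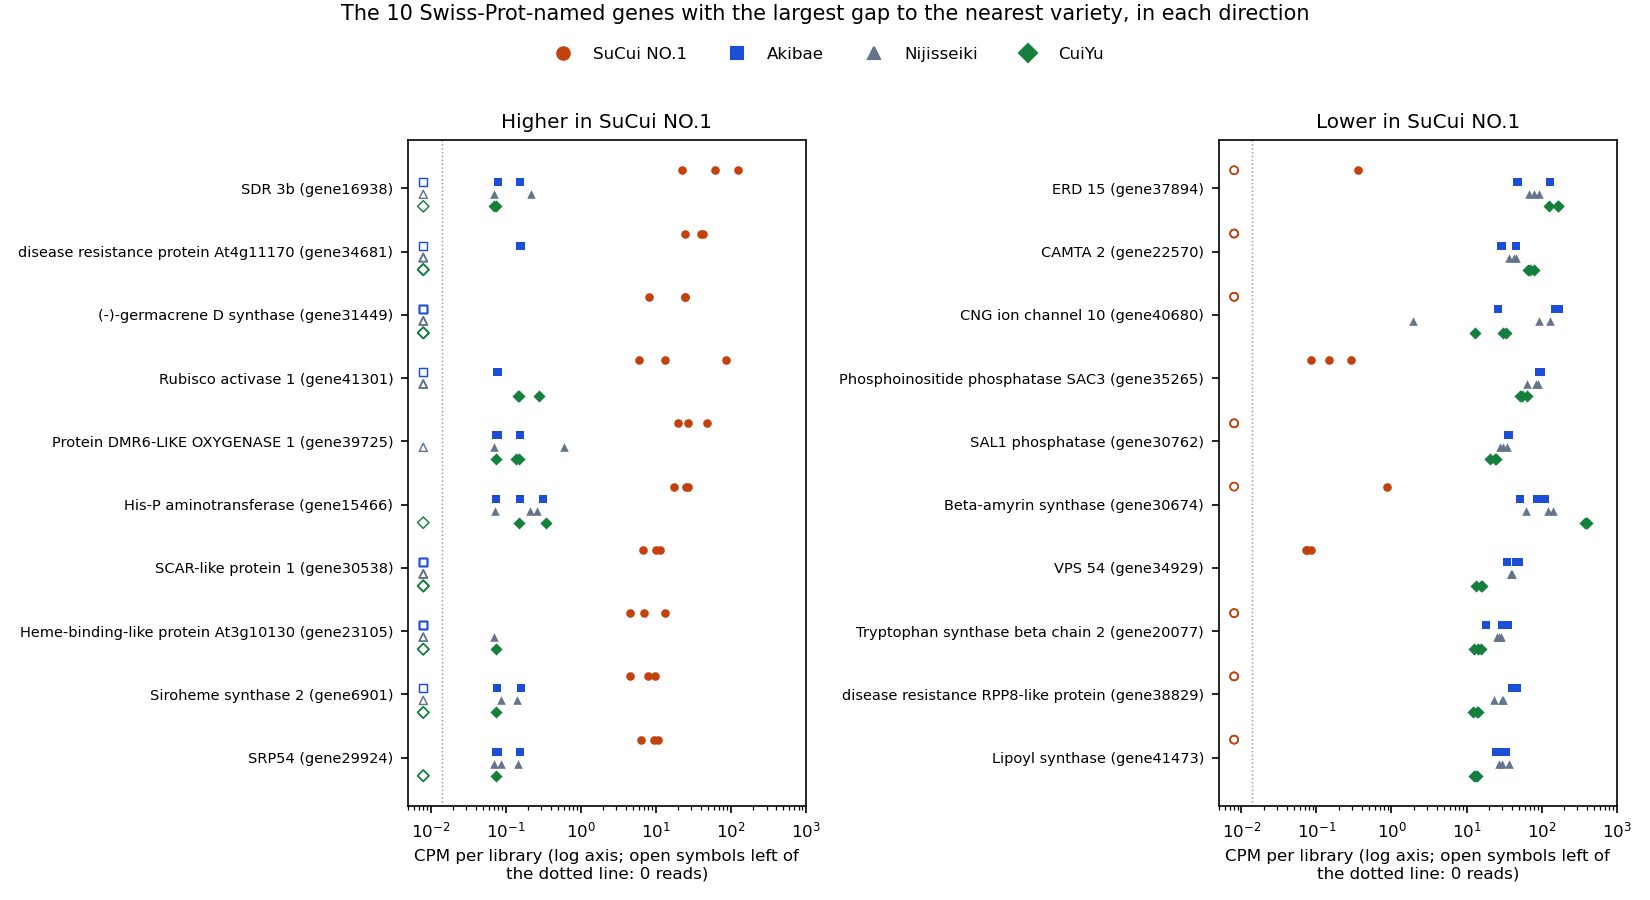
CPM on a log axis in each of the 12 libraries for the genes with the largest gap between SuCui NO.1 and the nearest other variety, 10 higher and 10 lower, with SuCui NO.1 drawn first. The genes are limited to those with a Swiss-Prot name other than a transposon or uncharacterised entry, 1 per entry. Each point is 1 library, and open points stand for 0 reads. By the rule that chose these genes, none of the SuCui NO.1 points overlaps those of the other 9 libraries. Of gene16938 the 3 SuCui NO.1 libraries lie between 22.1 and 124 CPM.

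The largest gap among the lower genes was that of gene37894 (chromosome 12, 7722342 to 7724037, plus strand), named for EARLY RESPONSIVE TO DEHYDRATION 15, a small stress-responsive protein. It had 0, 0 and 0.359 CPM in the SuCui NO.1 libraries, against 46.5, 48.9 and 131 in Akibae, 67.1, 80.1 and 93.4 in Nijisseiki and 163, 168 and 125 in CuiYu. The SuCui NO.1 mean was 632-fold lower than that of Akibae (adjusted p = 4.1e-05). Its neighbour gene37895, a chloroplast GTP-binding protein named BRASSINAZOLE INSENSITIVE PALE GREEN 2, was lower too, at 0.232 ± 0.224 CPM in SuCui NO.1, against 7.31 ± 2.80 in Akibae, 12.1 ± 7.04 in Nijisseiki and 2.23 ± 0.301 in CuiYu (adjusted p = 0.015).

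A calmodulin-binding transcription activator 2 gene, gene22570 (chromosome 12, 3220351 to 3230093, plus strand), of a family that couples calcium signals to gene expression, had 0 reads in each SuCui NO.1 library, against 45.6, 28.5 and 29.8 CPM in Akibae, 36.3, 45.9 and 42.9 in Nijisseiki and 70.3, 78.1 and 65.02 in CuiYu. No read fell on it in SuCui NO.1, which put it at least 454-fold lower than in Akibae (adjusted p = 2e-06). The cation channel gene CNGC10, gene40680 (on an unplaced scaffold), had 0 reads in each SuCui NO.1 library, against 151, 173 and 25.9 CPM in Akibae, 1.91, 129.6 and 92.6 in Nijisseiki and 12.9, 33.7 and 30.4 in CuiYu, at least 337-fold lower than in CuiYu (adjusted p = 0.015). SAC3, a phosphoinositide phosphatase, was the entry of gene35265 on chromosome 2 (3198113 to 3206358). It had 0.0837, 0.149 and 0.287 CPM in the SuCui NO.1 libraries, against 99.2, 93.04 and 91.2 in Akibae, 63.1, 85.5 and 88.2 in Nijisseiki and 64.3, 54.3 and 51.5 in CuiYu, a difference of 328-fold from CuiYu (adjusted p = 2.7e-07).

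SAL1 phosphatase degrades phosphoadenosine phosphate in Arabidopsis, and gene30762 of this entry had 0 reads in each SuCui NO.1 library, against 35.9, 37.2 and 35.6 CPM in Akibae, 34.5, 30.5 and 27.8 in Nijisseiki and 20.6, 24.3 and 24.5 in CuiYu (at least 304-fold lower than in CuiYu, adjusted p = 5.6e-07). Tryptophan synthase beta chain 2, gene20077 (chromosome 17, 16521550 to 16524338, minus strand), had 0 reads in each SuCui NO.1 library, against 30.1, 36.1 and 18.4 CPM in Akibae, 27.5, 25.4 and 28.5 in Nijisseiki and 12.4, 14.2 and 15.5 in CuiYu (at least 184-fold, adjusted p = 7.9e-06). Both had 0 reads in SuCui NO.1 and at least 12.4 CPM in every other library. Lipoyl synthase makes the cofactor of plastid pyruvate dehydrogenase. Its gene41473 (chromosome 12, 10196247 to 10198661, plus strand) averaged 0 CPM in SuCui NO.1, against 28.02 ± 4.75 in Akibae, 31.5 ± 5.10 in Nijisseiki and 13.2 ± 0.704 in CuiYu (at least 173-fold, adjusted p = 2.8e-06). VPS54, part of a tethering complex for vesicles bound for the Golgi, was the entry of gene34929 on an unplaced scaffold. It averaged 0.0766 ± 0.00628 CPM in SuCui NO.1, against 43.8 ± 8.20 in Akibae, 39.6 ± 0.684 in Nijisseiki and 14.9 ± 1.37 in CuiYu, a ratio of 196 to CuiYu with a counting interval of 66.6 to 951 (adjusted p = 2.6e-07). RPP8-like protein 2, gene38829 (chromosome 17, 13976 to 18442, minus strand), a disease resistance protein, averaged 0 CPM in SuCui NO.1, against 43.6 ± 2.95 in Akibae, 27.8 ± 4.11 in Nijisseiki and 13.4 ± 1.22 in CuiYu (at least 176-fold, adjusted p = 1.6e-06). With its copies added up, that entry was also lower in SuCui NO.1 than in each variety (adjusted p = 0.044). The sums of the other lower entries named so far were not called against each variety. For VPS54 the sum was 107 CPM in SuCui NO.1, against 108 in Akibae, 99.6 in Nijisseiki and 113 in CuiYu. In the same order it was 346, 379, 348 and 486 for calmodulin-binding transcription activator 2, and 170, 250, 232 and 243 for SAC3.

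A share of the members was seen on one side alone. Of the 634 lower genes, 104 had 0 reads in all 3 SuCui NO.1 libraries, 58 had 1 to 3 reads and 472 had more. Of these 104, 70 had a Swiss-Prot name and 81 lay on the numbered chromosomes. Of the 436 higher genes, 26 had 0 reads in the 9 other libraries, 21 had 1 to 3 and 389 had more. Besides the germacrene D synthase and SCAR-like protein 1, these 26 included 2 genes named for the resistance protein RGA2, a protein named TONSOKU and an ent-copalyl diphosphate synthase of gibberellin synthesis, picked here for their names after the values were seen. The ent-copalyl diphosphate synthase, gene27677, averaged 1.78 CPM in SuCui NO.1, against 0 in Akibae, 0 in Nijisseiki and 0 in CuiYu, and its call was lost with the replicate block (adjusted p = 0.073). With that block the calls of the TONSOKU gene (adjusted p = 0.071) and of gene6979, 1 of the 2 RGA2 genes (adjusted p = 0.064), were lost too. Another of the 26, outside the rule for named genes, resembles a retrotransposon polyprotein and lies on chromosome 1 (16428890 to 16444815). It had 71.2, 57.2 and 56.1 CPM in the SuCui NO.1 libraries, against 0 reads in all 9 libraries of the other varieties. A gene with no Swiss-Prot name, gene1386 (chromosome 15, 3424566 to 3430044, minus strand), was singled out for the widest gap of all 436. It had 245, 187 and 185 CPM in the SuCui NO.1 libraries, against 0.0771, 0 and 0 in Akibae, 0 in each library of Nijisseiki and 0.0696, 0.0753 and 0.0737 in CuiYu, with 1 read in Akibae, 0 in Nijisseiki and 3 in CuiYu. For the gap each mean was set to no less than the floor of 3 reads, which made Akibae the nearest variety. Its ratio to the single Akibae read was 7909, with a counting interval of 1419 to 312427 (adjusted p = 1.6e-06). By CPM without the floor CuiYu lay nearer, so the ratio to CuiYu is smaller.

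Among 32 tested genes of cuticular wax synthesis, 22 of cutin and 16 of suberin, 0 differed from each variety. At the shares of all genes tested, 1.66% higher and 2.41% lower, lists of these sizes would hold few members or none, so these counts do not set them apart. Of the wax genes 8 were higher and 0 lower than the mean of the other varieties, and their median log2 difference from that mean was 0.99 against 0.04 for all genes tested. The wax gene farthest from the mean was 3-ketoacyl-CoA synthase 10, gene1422, of an enzyme family that elongates fatty acids. It had 37.2, 15.5 and 31.6 CPM in the SuCui NO.1 libraries, against 0.0771, 0 and 0.150 in Akibae, 21.1, 3.61 and 1.61 in Nijisseiki and 48.03, 41.2 and 37.7 in CuiYu. Every SuCui NO.1 library was above Akibae and below CuiYu, and SuCui NO.1 overlapped Nijisseiki (log2 3.15 ± 0.62 against the mean, adjusted p = 0.006). Of the cutin genes 3 were higher and 2 lower than the mean, and of the suberin genes 1 was higher. The cutin acyltransferase gene DCR, gene19417, averaged 84.9 ± 90.4 CPM in SuCui NO.1, against 14.4 ± 9.40 in Akibae, 19.8 ± 26.04 in Nijisseiki and 1.39 ± 1.03 in CuiYu (log2 3.53 ± 0.87 against the mean, adjusted p = 0.018). LACS2, a long chain acyl-CoA synthetase of cutin precursors, averaged 1.58 ± 0.659 CPM in SuCui NO.1, against 5.60 ± 1.79 in Akibae, 11.8 ± 7.47 in Nijisseiki and 12.3 ± 7.57 in CuiYu (gene23598, log2 -2.56 ± 0.63 against the mean, adjusted p = 0.019). ABCG6, a transporter of suberin precursors in Arabidopsis, averaged 4.36 ± 3.32 CPM in SuCui NO.1, against 0.101 ± 0.0878 in Akibae, 0.240 ± 0.357 in Nijisseiki and 0.0928 ± 0.161 in CuiYu (gene29115, log2 4.92 ± 0.85 against the mean, adjusted p = 0.0028). In these 3 genes at least 1 of the 3 pairs missed the threshold. Summed over its 5 genes, ABCG6 averaged 21.3 CPM in SuCui NO.1, against 59.6 in Akibae, 38.3 in Nijisseiki and 9.49 in CuiYu. The 5 DCR genes summed to 181 CPM in SuCui NO.1, against 87.9 in Akibae, 60.9 in Nijisseiki and 256 in CuiYu. The 4 LACS2 genes summed to 18.6 CPM in SuCui NO.1, against 19.5 in Akibae, 29.1 in Nijisseiki and 36.6 in CuiYu. None of these sums was called against each variety. The call of DCR against the mean was lost without SuCui NO.1 replicate 1 (adjusted p = 0.16), and that of LACS2 was lost without SuCui NO.1 replicates 2 or 3 (adjusted p from 0.059 to 0.068). The summed epidermis and cuticle markers given above had the same order as the wax gene, with SuCui NO.1 above Akibae, below CuiYu and overlapping Nijisseiki. These markers include wax and cutin genes themselves, such as those of ECERIFERUM and HOTHEAD, so the shared order is no separate measure of epidermal cells. The part of the tissue in these values was not tested.

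Phenylpropanoid genes feed lignin, suberin phenolics and flavonoids. Of 13 tested genes of the entry steps 0 were higher and 1 was lower (7.69%, against 2.41% of all genes tested). The lower one was 4-coumarate--CoA ligase 2 on chromosome 5. This gene28008 had 0 reads in each SuCui NO.1 library, against 3.62, 2.87 and 4.13 CPM in Akibae, 2.52, 6.65 and 6.72 in Nijisseiki and 4.25, 1.05 and 1.18 in CuiYu (at least 28.3-fold lower than in CuiYu, adjusted p = 0.0027). Of 60 monolignol genes 2 were higher and 1 was lower. These were 3.33% and 1.67%, against 1.66% and 2.41% of all genes. Caffeic acid 3-O-methyltransferase 1, which methylates lignin precursors, averaged 11.3 ± 9.75 CPM in SuCui NO.1, against 0.0766 ± 0.0751 in Akibae, 0.290 ± 0.502 in Nijisseiki and 0.395 ± 0.284 in CuiYu (gene16474, adjusted p = 0.022), and cinnamoyl-CoA reductase 1 averaged 9.20 ± 6.36 CPM in SuCui NO.1, against 0.880 ± 0.223 in Akibae, 1.85 ± 0.305 in Nijisseiki and 0.467 ± 0.464 in CuiYu (gene6628, adjusted p = 0.0448). Summed over its 19 genes, cinnamoyl-CoA reductase 1 averaged 592 CPM in SuCui NO.1, against 811 in Akibae, 923 in Nijisseiki and 696 in CuiYu. The 4 methyltransferase genes summed to 18.9 CPM in SuCui NO.1, against 0.972 in Akibae, 0.660 in Nijisseiki and 3.72 in CuiYu. Neither sum was called against each variety. The calls of gene16474 and gene6628 rested on single libraries. That of gene16474 was lost without SuCui NO.1 replicate 1, Nijisseiki replicates 2 or 3 or CuiYu replicates 1, 2 or 3 (adjusted p from 0.061 to 0.083), and that of gene6628 was lost without SuCui NO.1 replicates 2 or 3, Akibae replicates 1, 2 or 3, Nijisseiki replicates 1, 2 or 3 or CuiYu replicate 1 (adjusted p from 0.056 to 0.15). Caffeoylshikimate esterase, gene28915, was the lower one, at 0 CPM in SuCui NO.1, against 0.771 ± 0.144 in Akibae, 1.27 ± 0.503 in Nijisseiki and 0.390 ± 0.119 in CuiYu (adjusted p = 0.0055). It was named after its values were seen.

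Of 70 genes of lignin polymerisation, the sole member was dirigent protein 17, gene3455 on chromosome 12 (1.43% lower, against 2.41% of all genes tested). Dirigent proteins steer the coupling of monolignol radicals in lignan synthesis. The gene had 2.18, 3.05 and 3.01 CPM in the SuCui NO.1 libraries, against 6.17, 9.73 and 9.08 in Akibae, 8.26, 10.04 and 10.6 in Nijisseiki and 6.26, 7.53 and 8.40 in CuiYu. It was lower in SuCui NO.1 in every library, with a log2 difference of -1.43 ± 0.27 against CuiYu (± SE, adjusted p = 0.0052), and no other gene carries its name. Of 36 flavonoid and proanthocyanidin genes 0 were members, while 4 were higher and 1 lower than the mean. Anthocyanidin reductase, which makes epicatechin units of proanthocyanidins, averaged 26.3 ± 4.48 CPM in SuCui NO.1, against 0.312 ± 0.208 in Akibae, 0.429 ± 0.434 in Nijisseiki and 9.36 ± 1.67 in CuiYu (gene5036, log2 4.57 ± 0.45 against the mean, adjusted p = 8.5e-05). Added over the copies of its entry, the reductase was higher in SuCui NO.1 than in each variety (adjusted p = 0.0049).

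The photosystem list held higher members and no lower ones. Of 113 tested genes of photosystems, light harvesting and carbon fixation 5 were higher in SuCui NO.1 than in each variety and 0 lower (4.42% against 1.66% of all genes tested). Against the mean, 27 were higher and 2 lower, and the list's median log2 difference was 0.89 against 0.04 for all genes. The 5 genes were the Rubisco activase pair, a light-harvesting gene of photosystem I named chlorophyll a-b binding protein 6, and 2 assembly factors of Rubisco. Chlorophyll a-b binding protein 6, gene25850, averaged 78.1 ± 14.2 CPM in SuCui NO.1, against 4.42 ± 0.323 in Akibae, 23.7 ± 12.2 in Nijisseiki and 29.2 ± 3.37 in CuiYu (adjusted p = 0.015), and its call was lost without CuiYu replicates 1 or 2 (adjusted p from 0.062 to 0.063). Rubisco accumulation factor 1.2, gene14682, averaged 31.5 ± 4.66 CPM in SuCui NO.1, against 14.8 ± 2.51 in Akibae, 14.96 ± 3.87 in Nijisseiki and 12.2 ± 1.62 in CuiYu (adjusted p = 0.011), and its call was kept whichever library was left out. The chaperonin-like RbcX protein 2, gene39983, averaged 13.2 ± 12.2 CPM in SuCui NO.1, against 0.486 ± 0.336 in Akibae, 0.650 ± 0.596 in Nijisseiki and 1.55 ± 0.396 in CuiYu (adjusted p = 0.026), and its call was lost without SuCui NO.1 replicate 1 or CuiYu replicates 1, 2 or 3 (adjusted p from 0.069 to 0.11). These 3 genes were named for completing the list, after their values were seen. The markers of green parenchyma were genes of the Rubisco small chain and of chlorophyll a-b binding proteins. They are of the same kinds as the genes of this list, and so no separate measure of the tissue. These markers, 27 of 36 of them tested, summed to 956 to 2174 CPM in SuCui NO.1, against 760 to 828 in Akibae, 793 to 2123 in Nijisseiki and 765 to 1047 in CuiYu, and 1 of them was a member. Their part in these values was not tested.

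Of 47 genes of chlorophyll synthesis and breakdown 2 were higher and 0 lower (4.26% higher, against 1.66% of all genes tested). At the shares of all genes tested, a list of this size would hold few members or none. These counts therefore do not set it apart. Both higher genes encode protoporphyrinogen oxidase, an enzyme before the branch to chlorophyll and heme. The first, gene749, averaged 4.50 ± 1.87 CPM in SuCui NO.1, against 0.0532 ± 0.0921 in Akibae, 0.413 ± 0.519 in Nijisseiki and 0.0478 ± 0.0414 in CuiYu (adjusted p = 0.039). The second, gene33644, averaged 12.5 ± 3.84 CPM in SuCui NO.1, against 4.45 ± 0.461 in Akibae, 0.530 ± 0.0445 in Nijisseiki and 0.338 ± 0.257 in CuiYu (adjusted p = 0.039). The call of gene749 was lost without SuCui NO.1 replicates 1 or 2, Nijisseiki replicates 1 or 3 or CuiYu replicates 1, 2 or 3 (adjusted p from 0.0505 to 0.13), and that of gene33644 was lost without SuCui NO.1 replicates 1 or 2, Akibae replicates 1, 2 or 3, Nijisseiki replicate 3 or CuiYu replicate 1 (adjusted p from 0.052 to 0.13) or with the replicate block (adjusted p = 0.064). Of 25 carotenoid genes 1 was higher and 2 lower (4% and 8%, against 1.66% and 2.41% of all genes tested). Beta-carotene hydroxylase 2, which forms xanthophylls, averaged 14.3 ± 5.62 CPM in SuCui NO.1, against 0.208 ± 0.120 in Akibae, 0.163 ± 0.160 in Nijisseiki and 2.92 ± 1.64 in CuiYu (gene25402, adjusted p = 0.018), and its call was lost without SuCui NO.1 replicate 1 or CuiYu replicates 2 or 3 (adjusted p from 0.063 to 0.078). The 2 lower genes both encode the carotenoid cleavage dioxygenase that makes volatile apocarotenoids. They lie close together on chromosome 2, and were named after their values were seen. Their mean values were 0 CPM in SuCui NO.1, against 11.2 in Akibae, 9.47 in Nijisseiki and 10.7 in CuiYu for gene15118, and 0 CPM in SuCui NO.1, against 9.07 in Akibae, 7.86 in Nijisseiki and 7.27 in CuiYu for gene15120 (adjusted p = 0.017 and 0.018). Nijisseiki replicate 1 also had 0 CPM in both genes, so SuCui NO.1 overlapped that variety. Nijisseiki replicates 2 and 3 had 17.2 and 11.2 CPM in gene15118, and 15.5 and 8.05 in gene15120. A further plastid-related gene, 4-hydroxyphenylpyruvate dioxygenase of tocopherol and plastoquinone synthesis, was picked after its values were seen. This gene2541 had 9.46, 19.996 and 16.2 CPM in the SuCui NO.1 libraries, against 599.8, 845 and 591 in Akibae, 1069, 678 and 685 in Nijisseiki and 838, 511 and 487 in CuiYu. Its log2 difference was -5.33 ± 0.39 against CuiYu (adjusted p = 1.6e-05).

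Of 93 triterpene and sterol genes 4 were higher and 6 lower. These were 4.30% and 6.45%, against 1.66% and 2.41% of all genes tested. Beta-amyrin synthase cyclises oxidosqualene into the skeleton of oleanane triterpenes, and 4 of the 10 members carried this name. On chromosome 17, gene28354 had 1565, 418 and 858 CPM in the SuCui NO.1 libraries, against 158, 125 and 62.1 in Akibae, 205, 56.4 and 83.4 in Nijisseiki and 182, 167 and 182 in CuiYu. Its log2 difference was 2.42 ± 0.57 against CuiYu (adjusted p = 0.016), a call that was lost without SuCui NO.1 replicate 1 or CuiYu replicates 1, 2 or 3 (adjusted p from 0.0507 to 0.066). On unplaced scaffolds, gene30674 had 0, 0 and 0.861 CPM in the SuCui NO.1 libraries, against 87.5, 51.1 and 109 in Akibae, 61.3, 142 and 124 in Nijisseiki and 377, 400.3 and 396 in CuiYu, which was 288-fold lower than in Akibae (adjusted p = 0.00017). Another, gene38942, averaged 0.0478 ± 0.0828 CPM in SuCui NO.1, against 11.7 ± 4.98 in Akibae, 3.75 ± 2.94 in Nijisseiki and 3.51 ± 2.22 in CuiYu, with a ratio of 70.2 to CuiYu and a counting interval of 19.1 to 585 (adjusted p = 0.0045). Summed over the 26 genes of this name, the level was 2006 ± 935 CPM in SuCui NO.1, against 742 ± 65.2 in Akibae, 889.7 ± 74.9 in Nijisseiki and 1128 ± 37.97 in CuiYu, a difference that was not called in each pair (adjusted p = 0.096). The delta(14)-sterol reductase gene on chromosome 14, gene5523, averaged 25.2 ± 2.55 CPM in SuCui NO.1, against 5.79 ± 1.14 in Akibae, 4.45 ± 0.861 in Nijisseiki and 3.99 ± 0.692 in CuiYu (adjusted p = 0.00026). Another gene of that name was among the lower members, as was the sterol desaturase gene36440, at 0.200 CPM in SuCui NO.1, against 3.74 in Akibae, 2.59 in Nijisseiki and 2.81 in CuiYu (adjusted p = 0.0031), which was added after its values were seen.

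Gibberellin, jasmonate and brassinosteroid genes gave 6 higher and 7 lower members of 132. These were 4.55% and 5.30%, against 1.66% and 2.41% of all genes. Gibberellin 2-beta-dioxygenase 1 inactivates gibberellins, and all 3 genes of this name were higher in SuCui NO.1. On chromosome 10, gene17385 had 70.96, 6.32 and 199 CPM in the SuCui NO.1 libraries, against 0.539, 1.76 and 0.300 in Akibae, 3.31, 0 and 3.22 in Nijisseiki and 1.11, 1.96 and 1.92 in CuiYu (adjusted p = 0.021). On chromosome 4, gene25078 had 1.34, 0.818 and 11.8 CPM in the SuCui NO.1 libraries, against 0.0771, 0.239 and 0 in Akibae, 0.174, 0 and 0.210 in Nijisseiki and 0.209, 0.0753 and 0.221 in CuiYu (adjusted p = 0.024). SuCui NO.1 did not overlap the other varieties in either gene. Added over the 3 genes, the level was 128 ± 143 CPM in SuCui NO.1, against 1.27 ± 1.10 in Akibae, 3.27 ± 2.65 in Nijisseiki and 2.44 ± 0.662 in CuiYu (adjusted p = 0.038). The call of gene17385 was lost without SuCui NO.1 replicate 3, Nijisseiki replicate 3 or CuiYu replicates 1, 2 or 3 (adjusted p from 0.0544 to 0.064), that of gene25078 without SuCui NO.1 replicate 3, Akibae replicates 1 or 3, Nijisseiki replicates 2 or 3 or CuiYu replicates 1, 2 or 3 (adjusted p from 0.0551 to 0.11), and that of the remaining copy, gene7050, without SuCui NO.1 replicate 3, Nijisseiki replicates 2 or 3 or CuiYu replicates 1 or 3 (adjusted p from 0.059 to 0.13) or with the replicate block (adjusted p = 0.082).

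The chloroplast lipoxygenase gene6908, named linoleate 13S-lipoxygenase 2-1 and picked after its values were seen, starts jasmonate synthesis from fatty acids. It had 2882, 841 and 595 CPM in the SuCui NO.1 libraries, against 69.5, 118 and 52.7 in Akibae, 191, 190.2 and 81.7 in Nijisseiki and 36.1, 45.2 and 49.98 in CuiYu. Every SuCui NO.1 library was above the rest (log2 3.22 ± 0.60 against Nijisseiki, adjusted p = 0.0059). The enzyme 12-oxophytodienoate reductase 3 reduces an intermediate later in the same pathway, and gene30144 on chromosome 2 had 0.0837, 0.0743 and 0.359 CPM in the SuCui NO.1 libraries, against 77.7, 59.4 and 36.2 in Akibae, 57.6, 38.3 and 54.4 in Nijisseiki and 6.33, 6.40 and 6.78 in CuiYu. The log2 difference was -5.13 ± 0.48 against CuiYu (adjusted p = 7.5e-05). Summed over its 4 genes, the reductase averaged 88.5 CPM in SuCui NO.1, against 132 in Akibae, 118 in Nijisseiki and 37.5 in CuiYu. That sum was not called against each variety. Among brassinosteroid genes, the transcription factor gene BRASSINAZOLE-RESISTANT 1 (gene15655, added after its values were seen) averaged 14.01 ± 5.22 CPM in SuCui NO.1, against 57.1 ± 8.01 in Akibae, 59.3 ± 17.6 in Nijisseiki and 54.6 ± 5.90 in CuiYu (adjusted p = 0.0016). Cytochrome P450 CYP734A1 inactivates brassinosteroids. Its gene15636 averaged 4.27 ± 1.54 CPM in SuCui NO.1, against 38.4 ± 5.60 in Akibae, 27.2 ± 2.72 in Nijisseiki and 8.93 ± 1.57 in CuiYu (adjusted p = 0.019), and the call was lost without SuCui NO.1 replicates 1 or 3 or CuiYu replicates 2 or 3 (adjusted p from 0.0514 to 0.067). The P450 genes CYP714C2 and CYP714A1, of a family that modifies gibberellins in rice, lie near each other on chromosome 7. The CYP714C2 gene, gene23650, averaged 16.5 ± 4.16 CPM in SuCui NO.1, against 2.85 ± 0.977 in Akibae, 3.49 ± 0.946 in Nijisseiki and 8.08 ± 0.907 in CuiYu (adjusted p = 0.0445), and its call was lost without SuCui NO.1 replicates 1, 2 or 3, Akibae replicate 1, Nijisseiki replicate 2 or CuiYu replicates 1, 2 or 3 (adjusted p from 0.0515 to 0.14) or with the replicate block (adjusted p = 0.068). The CYP714A1 gene, gene23645, averaged 0.649 ± 0.249 CPM in SuCui NO.1, against 2.14 ± 0.257 in Akibae, 2.71 ± 0.613 in Nijisseiki and 2.77 ± 0.542 in CuiYu (adjusted p = 0.013), and its call was lost without Akibae replicate 1 (adjusted p = 0.0503).

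Of 145 auxin genes 5 were higher and 3 lower (3.45% and 2.07%, against 1.66% and 2.41% of all genes tested). A receptor and a response factor were among the lower ones. AUXIN SIGNALING F-BOX 2, an auxin receptor, averaged 30.7 ± 7.76 CPM in SuCui NO.1, against 159 ± 54.2 in Akibae, 169 ± 54.1 in Nijisseiki and 97.6 ± 14.7 in CuiYu (gene35959, added after its values were seen, adjusted p = 0.0056). Auxin response factor 17, gene16820, averaged 0.0279 ± 0.0483 CPM in SuCui NO.1, against 3.48 ± 0.278 in Akibae, 5.48 ± 1.27 in Nijisseiki and 4.35 ± 0.551 in CuiYu, a ratio of 137 to Akibae with a counting interval of 24.1 to 5441 (adjusted p = 8.8e-05). Small auxin-responsive genes were found on both sides. SAUR32, gene12175, averaged 80.3 ± 101 CPM in SuCui NO.1, against 5.36 ± 1.56 in Akibae, 3.55 ± 1.94 in Nijisseiki and 9.28 ± 1.92 in CuiYu (adjusted p = 0.025), and the Aux/IAA gene 22B, gene30188, averaged 44.5 ± 35.5 CPM in SuCui NO.1, against 1.71 ± 1.45 in Akibae, 4.34 ± 2.11 in Nijisseiki and 8.31 ± 2.62 in CuiYu (adjusted p = 0.039). The gene named ARG7 on chromosome 2, gene35282, averaged 0 CPM in SuCui NO.1, against 12.1 ± 2.13 in Akibae, 12.8 ± 3.62 in Nijisseiki and 2.20 ± 0.851 in CuiYu (adjusted p = 0.00026). The call of gene12175 was lost without SuCui NO.1 replicate 1, Akibae replicate 2 or CuiYu replicates 1, 2 or 3 (adjusted p from 0.0528 to 0.093), and that of gene30188 without SuCui NO.1 replicates 1 or 2, Akibae replicate 2, Nijisseiki replicate 2 or CuiYu replicates 1, 2 or 3 (adjusted p from 0.05 to 0.15) or with the replicate block (adjusted p = 0.069). PIN-LIKES genes encode auxin carriers of the endoplasmic reticulum, and PIN-LIKES 2, gene16933, picked after its values were seen, averaged 46.7 ± 15.8 CPM in SuCui NO.1, against 16.9 ± 2.17 in Akibae, 19.4 ± 5.75 in Nijisseiki and 16.8 ± 0.881 in CuiYu (adjusted p = 0.011).

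Of 41 ethylene genes 1 was higher (2.44%, against 1.66% of all genes tested). Of 44 abscisic acid genes 1 was lower (2.27%, against 2.41%). ETHYLENE INSENSITIVE 3, a central transcription factor of the ethylene response, was the entry of gene31723. It had 19.4, 12.6 and 13.6 CPM in the SuCui NO.1 libraries, against 5.86, 3.99 and 8.10 in Akibae, 4.87, 5.35 and 5.46 in Nijisseiki and 6.61, 6.77 and 4.13 in CuiYu. No SuCui NO.1 library overlapped the rest, the log2 difference was 1.35 ± 0.31 against Akibae (adjusted p = 0.014), and its call was lost without SuCui NO.1 replicate 1, Akibae replicates 1 or 2 or CuiYu replicate 3 (adjusted p from 0.0504 to 0.057). The 8 genes of this entry summed to 1221 CPM in SuCui NO.1, against 1173 in Akibae, 1247 in Nijisseiki and 1192 in CuiYu. That sum was not called, and gene31723 is a minor copy. The Ninja-family protein AFP3, a negative regulator of abscisic acid responses in Arabidopsis, averaged 0.126 ± 0.0841 CPM in SuCui NO.1, against 4.38 ± 1.39 in Akibae, 0.766 ± 0.579 in Nijisseiki and 6.16 ± 0.724 in CuiYu (gene2169, adjusted p = 0.041). At least 1 SuCui NO.1 library of this gene overlapped another variety, and its call was lost without SuCui NO.1 replicates 1 or 3, Akibae replicates 1 or 3, Nijisseiki replicates 2 or 3 or CuiYu replicates 1, 2 or 3 (adjusted p from 0.0548 to 0.15) or with the replicate block (adjusted p = 0.071). SRK2A, a kinase of the SnRK2 family, was higher than the mean of the other varieties, at 57.99 ± 26.5 CPM in SuCui NO.1, against 34.1 ± 4.02 in Akibae, 48.2 ± 15.4 in Nijisseiki and 12.02 ± 5.20 in CuiYu (gene39836, log2 1.10 ± 0.31 against the mean, adjusted p = 0.03), but it was not called against each, and the call against the mean was lost without SuCui NO.1 replicates 1 or 3, Akibae replicate 2 or CuiYu replicates 1 or 2 (adjusted p from 0.0512 to 0.15). The copper-transporting ATPase RAN1, which loads ethylene receptors with copper in Arabidopsis, was higher, at 25.4 ± 6.62 CPM in SuCui NO.1, against 8.62 ± 2.59 in Akibae, 7.35 ± 1.49 in Nijisseiki and 9.32 ± 0.733 in CuiYu (gene32590, adjusted p = 0.0063).

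Of 90 tested pectin genes 0 were members (1.66% higher and 2.41% lower among all genes tested), with 3 higher and 3 lower than the mean. The polygalacturonase inhibitor gene8668, which restrains fungal pectinases, averaged 1111 ± 1592 CPM in SuCui NO.1, against 168 ± 66.9 in Akibae, 95.1 ± 62.1 in Nijisseiki and 7.92 ± 8.75 in CuiYu (log2 4.47 ± 0.80 against the mean, adjusted p = 0.0034). The galacturonosyltransferase gene2593 averaged 13.96 ± 13.9 CPM in SuCui NO.1, against 28.98 ± 11.6 in Akibae, 40.3 ± 10.6 in Nijisseiki and 112 ± 23.4 in CuiYu (log2 -1.86 ± 0.53 against the mean, adjusted p = 0.032). Both passed the test against the mean alone, a call lost without SuCui NO.1 replicate 1 (adjusted p = 0.074) for gene8668 and without SuCui NO.1 replicates 1 or 3, Akibae replicate 2, Nijisseiki replicate 3 or CuiYu replicates 1 or 2 (adjusted p from 0.0514 to 0.12) for gene2593. Of 85 wall-loosening genes 1 was lower (1.18%, against 2.41% of all genes tested), expansin-A4 (gene33843). It had 198, 479.5 and 169 CPM in the SuCui NO.1 libraries, against 633, 895 and 816 in Akibae, 825, 516 and 883 in Nijisseiki and 985, 946 and 1024 in CuiYu. SuCui NO.1 lay below every other library, with a log2 difference of -1.39 ± 0.38 against Nijisseiki (adjusted p = 0.034), and its call was lost without SuCui NO.1 replicates 1 or 3, Akibae replicates 2 or 3, Nijisseiki replicates 1 or 3 or CuiYu replicates 1, 2 or 3 (adjusted p from 0.0527 to 0.11). Of 57 cellulose and secondary wall genes 0 were higher and 4 lower (7.02% lower, against 2.41% of all genes tested). KOBITO 1, a plasma membrane protein needed for cellulose synthesis in Arabidopsis, averaged 1.41 ± 0.801 CPM in SuCui NO.1, against 6.35 ± 1.99 in Akibae, 6.38 ± 2.50 in Nijisseiki and 7.61 ± 1.04 in CuiYu (gene6678, adjusted p = 0.012). Cellulose synthase subunit 2 averaged 0.538 ± 0.152 CPM in SuCui NO.1, against 1.97 ± 0.680 in Akibae, 1.89 ± 0.365 in Nijisseiki and 1.74 ± 0.426 in CuiYu (gene38201, adjusted p = 0.023), and its call was lost without SuCui NO.1 replicates 2 or 3, Akibae replicate 3, Nijisseiki replicates 2 or 3 or CuiYu replicates 1 or 2 (adjusted p from 0.0511 to 0.088). Both are minor copies. The 5 genes of cellulose synthase subunit 2 summed to 588 CPM in SuCui NO.1, against 800 in Akibae, 869 in Nijisseiki and 934 in CuiYu. The 2 KOBITO 1 genes summed to 96.0 CPM in SuCui NO.1, against 97.9 in Akibae, 110 in Nijisseiki and 109 in CuiYu. Neither sum was called against each variety.

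Carbohydrate genes gave 6 higher and 5 lower members of 134 in sorbitol, sucrose and starch metabolism, and 0 higher and 2 lower of 54 in sugar transport. The metabolism shares were 4.48% and 3.73%, and sugar transport had 3.70% lower, against 1.66% and 2.41% of all genes tested. Starch genes appeared on both sides. Granule-bound starch synthase 1 makes amylose, and a gene of this name on an unplaced scaffold had 1.59, 3.57 and 1.51 CPM in the SuCui NO.1 libraries, against 58.6, 37.3 and 33.8 in Akibae, 51.8, 51.5 and 46.6 in Nijisseiki and 27.3, 19.2 and 33.8 in CuiYu. Its log2 difference was -3.58 ± 0.37 against CuiYu (adjusted p = 0.00017). Pullulanase 1, a debranching enzyme, averaged 4.83 ± 1.03 CPM in SuCui NO.1, against 40.7 ± 11.7 in Akibae, 30.3 ± 7.89 in Nijisseiki and 69.97 ± 6.65 in CuiYu (gene18395, adjusted p = 0.00014). The inactive beta-amylase 4, a non-catalytic member of its family in Arabidopsis, averaged 5.21 ± 2.50 CPM in SuCui NO.1, against 0 in Akibae, 0 in Nijisseiki and 0.0251 ± 0.0435 in CuiYu (gene13820), at least 67.5-fold higher than in Akibae (adjusted p = 0.0041). Alpha-glucosidase 2 averaged 4.81 ± 4.95 CPM in SuCui NO.1, against 0.203 ± 0.154 in Akibae, 0.374 ± 0.279 in Nijisseiki and 0.320 ± 0.162 in CuiYu (gene35126, adjusted p = 0.024), and its call was lost without SuCui NO.1 replicate 2, Akibae replicate 1, Nijisseiki replicates 2 or 3 or CuiYu replicates 1, 2 or 3 (adjusted p from 0.051 to 0.091) or with the replicate block (adjusted p = 0.071).

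Both sugar transporter members load or unload the vacuole. Monosaccharide-sensing protein 2, which imports sugars into the vacuole, was the entry of gene33607. It had 15.1, 14.7 and 8.75 CPM in the SuCui NO.1 libraries, against 90.2, 72.2 and 65.9 in Akibae, 49.1, 103 and 127 in Nijisseiki and 61.3, 61.7 and 62.6 in CuiYu. The log2 difference was -2.27 ± 0.33 against CuiYu (adjusted p = 0.0013). The sucrose transporter SUC4, which exports sucrose from the vacuole, was the entry of gene28767 on chromosome 8. It had 7.95, 13.5 and 7.17 CPM in the SuCui NO.1 libraries, against 85.9, 90.4 and 64.9 in Akibae, 34.8, 50.3 and 41.7 in Nijisseiki and 35.8, 52.3 and 26.2 in CuiYu. SuCui NO.1 was lower in every library, with a log2 difference of -1.99 ± 0.31 against CuiYu (adjusted p = 0.002). Summed over its 8 genes, monosaccharide-sensing protein 2 averaged 442 CPM in SuCui NO.1, against 588 in Akibae, 582 in Nijisseiki and 515 in CuiYu. The 2 SUC4 genes summed to 48.6 CPM in SuCui NO.1, against 137 in Akibae, 83.0 in Nijisseiki and 80.1 in CuiYu. Neither sum was called against each variety.

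**Figure D2:**
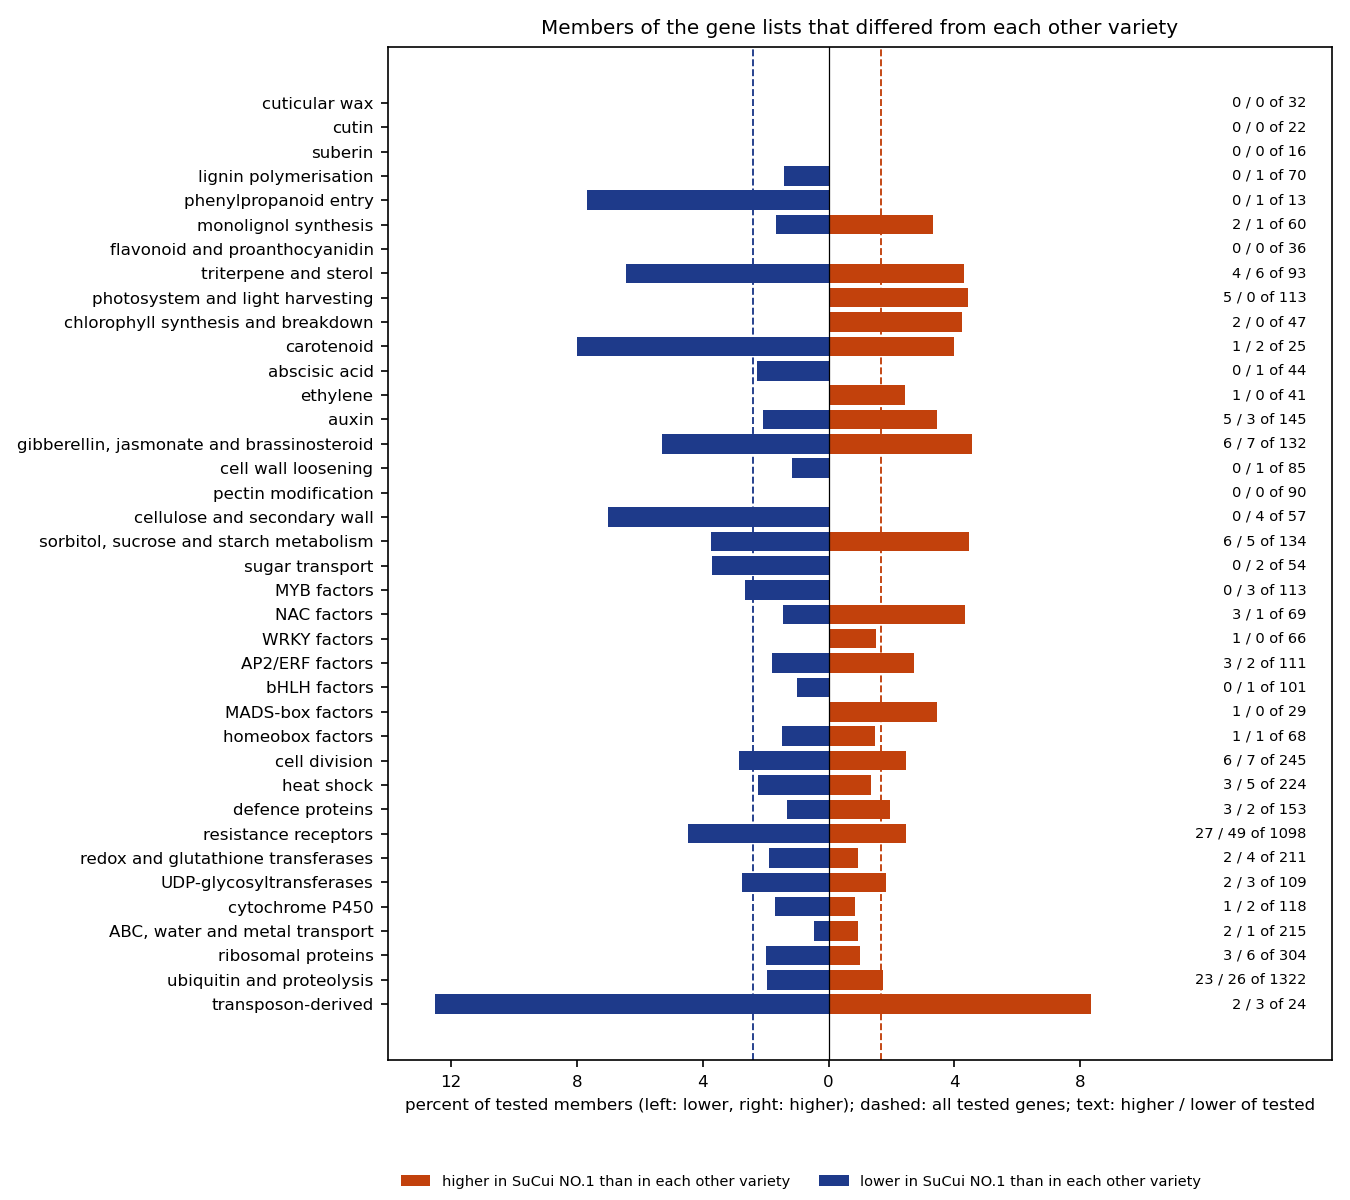
Bars give the percentage of the tested genes of each list that were higher (right) or lower (left) in SuCui NO.1 than in each other variety, dashed lines give the 1.66% and 2.41% of all genes tested, and the text gives counts. The photosystem list holds 5 higher and 0 lower members, and the wax, cutin and suberin lists hold 0.

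Among transcription factors, the MYB family had 0 higher and 3 lower members of 113 (2.65% lower, against 2.41% of all genes tested). DIVARICATA, which sets dorsoventral flower identity in snapdragon, averaged 3.71 ± 1.40 CPM in SuCui NO.1, against 14.4 ± 3.26 in Akibae, 21.5 ± 4.47 in Nijisseiki and 18.03 ± 1.72 in CuiYu (gene10232, adjusted p = 0.0016). The rough sheath 2 gene, whose maize counterpart represses homeobox genes in leaves, averaged 0.0726 ± 0.0717 CPM in SuCui NO.1, against 3.87 ± 0.859 in Akibae, 2.63 ± 1.01 in Nijisseiki and 1.004 ± 0.745 in CuiYu (gene40247), a ratio of 13.04 to CuiYu with a counting interval of 4.16 to 65.9 (adjusted p = 0.013). MYB36 directs Casparian strip formation in Arabidopsis roots. Its gene24976, added after its values were seen, had 3.10, 4.68 and 3.44 CPM in the SuCui NO.1 libraries, against 20.3, 18.8 and 16.8 in Akibae, 8.002, 11.2 and 9.52 in Nijisseiki and 7.73, 8.81 and 9.21 in CuiYu. All 3 SuCui NO.1 libraries lay below the rest, with a log2 difference of -1.19 ± 0.23 against CuiYu (adjusted p = 0.0055). Of 69 NAC genes 3 were higher and 1 lower. These were 4.35% and 1.45%, against 1.66% and 2.41% of all genes. NAC transcription factor 47, gene36693, averaged 7.68 ± 5.70 CPM in SuCui NO.1, against 0.820 ± 0.460 in Akibae, 0.524 ± 0.0780 in Nijisseiki and 0.314 ± 0.146 in CuiYu (adjusted p = 0.0084). NAC7, which drives vessel formation in Arabidopsis, was lower, at 1.25 ± 0.737 CPM in SuCui NO.1, against 4.82 ± 0.308 in Akibae, 4.75 ± 1.28 in Nijisseiki and 5.01 ± 1.39 in CuiYu (gene32113, adjusted p = 0.014). Over the 6 genes of its name it was also lower than in each variety (adjusted p = 0.031), while the call of the single gene was lost without SuCui NO.1 replicate 1 or Nijisseiki replicate 3 (adjusted p from 0.0509 to 0.0541). NAC73, gene446, averaged 9.74 ± 10.95 CPM in SuCui NO.1, against 1.56 ± 0.769 in Akibae, 1.42 ± 0.358 in Nijisseiki and 1.10 ± 0.363 in CuiYu (adjusted p = 0.041), and its call was lost without SuCui NO.1 replicate 3, Akibae replicates 1, 2 or 3, Nijisseiki replicates 1, 2 or 3 or CuiYu replicates 1, 2 or 3 (adjusted p from 0.06 to 0.19) or with the replicate block (adjusted p = 0.11).

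Of 111 AP2/ERF genes 3 were higher and 2 lower (2.70% and 1.80%). TEM1, a repressor of flowering in Arabidopsis, averaged 38.6 ± 16.02 CPM in SuCui NO.1, against 3.93 ± 2.16 in Akibae, 5.07 ± 2.02 in Nijisseiki and 7.42 ± 3.59 in CuiYu (gene894, adjusted p = 0.013), and its call was lost without CuiYu replicates 1 or 2 (adjusted p from 0.057 to 0.061). RAP2-2, which acts in responses to low oxygen in Arabidopsis, was the entry of gene9450. It had 8.03, 5.28 and 4.66 CPM in the SuCui NO.1 libraries, against 143, 143 and 150.2 in Akibae, 219, 157 and 159 in Nijisseiki and 243, 213 and 166 in CuiYu. The log2 difference was -4.60 ± 0.26 against Akibae (adjusted p = 3.1e-06), with no overlap. Summed over its 4 genes, RAP2-2 averaged 1777 CPM in SuCui NO.1, against 1603 in Akibae, 1193 in Nijisseiki and 2042 in CuiYu. That sum was not called, so the lower level is that of 1 copy. The AP2-like factor At2g41710 averaged 2.47 ± 1.53 CPM in SuCui NO.1, against 16.95 ± 2.45 in Akibae, 13.96 ± 7.54 in Nijisseiki and 9.88 ± 0.680 in CuiYu (gene13622, adjusted p = 0.02), and its call was lost without SuCui NO.1 replicates 1 or 3 or CuiYu replicates 1, 2 or 3 (adjusted p from 0.0503 to 0.064). Of 66 WRKY genes 1 was higher (1.52%, against 1.66% of all genes tested). This was WRKY24 (gene34246), at 12.9 ± 6.18 CPM in SuCui NO.1, against 3.08 ± 0.766 in Akibae, 2.79 ± 1.09 in Nijisseiki and 2.33 ± 0.350 in CuiYu (adjusted p = 0.01). Of 101 bHLH genes 1 was lower (0.99%, against 2.41% of all genes tested). This was bHLH113 (gene36698), at 0.659 ± 0.515 CPM in SuCui NO.1, against 17.5 ± 3.56 in Akibae, 27.6 ± 6.30 in Nijisseiki and 3.39 ± 0.497 in CuiYu (adjusted p = 0.012).

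Of 29 MADS-box genes 1 was higher (3.45%), and of 68 homeobox genes 1 was higher and 1 lower (1.47% each). All genes tested gave 1.66% higher and 2.41% lower. AGL65, known from pollen in Arabidopsis, averaged 19.3 ± 12.7 CPM in SuCui NO.1, against 5.69 ± 0.951 in Akibae, 1.75 ± 0.302 in Nijisseiki and 5.67 ± 1.70 in CuiYu (gene18615, adjusted p = 0.019), and its call was lost without SuCui NO.1 replicate 1, Akibae replicates 1, 2 or 3 or CuiYu replicates 2 or 3 (adjusted p from 0.0503 to 0.071). Summed pollen markers were 26.2 to 119 CPM in SuCui NO.1, against 57.2 to 95.6 in Akibae, 39.8 to 140 in Nijisseiki and 96.7 to 133 in CuiYu, and 0 of them were members. ATHB-16, a leucine zipper factor, averaged 294 ± 140.2 CPM in SuCui NO.1, against 84.2 ± 15.96 in Akibae, 96.4 ± 12.6 in Nijisseiki and 103 ± 19.7 in CuiYu (gene35328, adjusted p = 0.012), and its call was lost without CuiYu replicate 3 (adjusted p = 0.051). The BEL1 homolog, of a family first known from ovules, averaged 4.63 ± 0.746 CPM in SuCui NO.1, against 12.96 ± 1.87 in Akibae, 24.4 ± 12.2 in Nijisseiki and 22.5 ± 1.004 in CuiYu (gene13814, adjusted p = 0.0089).

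Disease resistance and receptor genes gave 27 higher and 49 lower members of 1098. These were 2.46% higher and 4.46% lower, against 1.66% and 2.41% of all genes. They belong to fast-evolving families in which near-identical copies can share reads. The entry TMV resistance protein N had 188 tested genes, and it was the name of 4 higher and 14 lower members. Of these, gene27403 on chromosome 5 had 0 reads in each SuCui NO.1 library, against 9.71, 8.22 and 8.93 CPM in Akibae, 7.48, 15.8 and 29.6 in Nijisseiki and 8.49, 7.98 and 10.1 in CuiYu (at least 116-fold lower than in CuiYu, adjusted p = 0.00018). The resistance gene At4g27190 on chromosome 11, gene14868, averaged 6.53 ± 2.38 CPM in SuCui NO.1, against 0 in Akibae, 0.0723 ± 0.125 in Nijisseiki and 0 in CuiYu (at least 84.6-fold higher than in Akibae, adjusted p = 0.01). Among 153 defence proteins 3 were higher and 2 lower (1.96% and 1.31%, against 1.66% and 2.41% of all genes), and 32 were higher and 7 lower than the mean. Chitotriosidase-1, a chitin-degrading enzyme, was the entry of gene9911. It had 32.97, 5.58 and 20.4 CPM in the SuCui NO.1 libraries, against 0.231, 0.559 and 0.750 in Akibae, 2.0004, 1.08 and 0.560 in Nijisseiki and 0.418, 0.753 and 0.737 in CuiYu. The SuCui NO.1 libraries lay above the rest, with a log2 difference of 4.02 ± 0.70 against Nijisseiki (adjusted p = 0.0038). The glucan endo-1,3-beta-glucosidases, which cut callose and fungal glucans, went both ways. The gene numbered 1 in its name averaged 4.69 ± 1.75 CPM in SuCui NO.1, against 0.129 ± 0.0451 in Akibae, 0 in Nijisseiki and 0.417 ± 0.351 in CuiYu (gene40372, adjusted p = 0.0085), that numbered 11 averaged 44.1 ± 26.8 CPM in SuCui NO.1, against 268 ± 94.7 in Akibae, 201 ± 84.8 in Nijisseiki and 256 ± 13.2 in CuiYu (gene35841, adjusted p = 0.013) and that numbered 6 averaged 20.2 ± 4.93 CPM in SuCui NO.1, against 40.8 ± 6.64 in Akibae, 37.1 ± 5.99 in Nijisseiki and 34.2 ± 6.12 in CuiYu (gene24404, adjusted p = 0.044). The call of gene24404 was lost without SuCui NO.1 replicates 1 or 3, Akibae replicates 1 or 2, Nijisseiki replicates 2 or 3 or CuiYu replicates 1, 2 or 3 (adjusted p from 0.058 to 0.14).

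Redox, glycosyltransferase and transport lists held between 1 and 4 members per direction. Their shares, higher and lower, were 0.95% and 1.90% (redox), 1.83% and 2.75% (glycosyltransferases) and 0.93% and 0.47% (transport). All genes tested gave 1.66% and 2.41%. Glutaredoxin-C2 was higher, at 7.79 ± 3.49 CPM in SuCui NO.1, against 0.539 ± 0.0608 in Akibae, 1.71 ± 0.395 in Nijisseiki and 2.24 ± 0.270 in CuiYu (gene25130, adjusted p = 0.0085). Peroxiredoxin Q, which removes peroxides in chloroplasts, averaged 0.0726 ± 0.0717 CPM in SuCui NO.1, against 14.3 ± 1.93 in Akibae, 6.39 ± 3.94 in Nijisseiki and 1.36 ± 0.203 in CuiYu (gene35284), a ratio of 17.8 to CuiYu with a counting interval of 5.79 to 88.995 (adjusted p = 0.0041). The quinone reductase FQR1-like 2 on chromosome 12 averaged 0.100 ± 0.0375 CPM in SuCui NO.1, against 2.02 ± 0.637 in Akibae, 2.71 ± 0.817 in Nijisseiki and 1.67 ± 0.122 in CuiYu (gene3498, adjusted p = 0.00062). Of 109 UDP-glycosyltransferases, which attach sugars to small molecules, 83A1 on chromosome 17 had 19.3, 2.38 and 27.04 CPM in the SuCui NO.1 libraries, against 0.0771, 0.239 and 0 in Akibae, 0.435, 0.145 and 0.210 in Nijisseiki and 0.0696, 0 and 0.663 in CuiYu (gene11607). The SuCui NO.1 libraries spread widely but did not overlap the rest (log2 5.93 ± 1.19 against Nijisseiki, adjusted p = 0.0087). The 7-deoxyloganetin glucosyltransferase averaged 4.53 ± 4.56 CPM in SuCui NO.1, against 0.461 ± 0.141 in Akibae, 0.619 ± 0.160 in Nijisseiki and 0.613 ± 0.340 in CuiYu (gene25743, adjusted p = 0.027), and its call was lost without SuCui NO.1 replicate 1, Akibae replicates 1 or 2, Nijisseiki replicates 1, 2 or 3 or CuiYu replicates 1 or 2 (adjusted p from 0.058 to 0.13) or with the replicate block (adjusted p = 0.067). The glycosyltransferase 87A2 averaged 0.563 ± 0.193 CPM in SuCui NO.1, against 2.36 ± 0.368 in Akibae, 1.93 ± 0.596 in Nijisseiki and 2.87 ± 0.441 in CuiYu (gene18848, adjusted p = 0.017), and its call was lost without SuCui NO.1 replicate 3 (adjusted p = 0.0515). The ABC transporter B29 of the chloroplast averaged 5.36 ± 1.12 CPM in SuCui NO.1, against 0.155 ± 0.0782 in Akibae, 0.166 ± 0.149 in Nijisseiki and 0.218 ± 0.147 in CuiYu (gene29922, adjusted p = 0.0026), and the vacuolar metal transporter Nramp3 averaged 1.95 ± 0.245 CPM in SuCui NO.1, against 12.1 ± 2.38 in Akibae, 21.6 ± 7.94 in Nijisseiki and 8.67 ± 1.59 in CuiYu (gene38084, adjusted p = 0.0012).

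Housekeeping lists held members in both directions, at shares near the 1.66% higher and 2.41% lower of all genes tested. Of 245 cell division genes 6 were higher and 7 lower (2.45% and 2.86%). The cyclin-dependent kinase gene29959, a homolog of cell division control protein 2, averaged 17.9 ± 0.366 CPM in SuCui NO.1, against 7.75 ± 1.48 in Akibae, 7.61 ± 2.48 in Nijisseiki and 6.99 ± 1.03 in CuiYu (adjusted p = 0.011). NACK2 and KIN-7A are kinesins of a family that acts in cytokinesis in tobacco, and their genes are neighbours on chromosome 2. NACK2, gene35267, averaged 0 CPM in SuCui NO.1, against 2.17 ± 0.734 in Akibae, 3.43 ± 2.61 in Nijisseiki and 1.64 ± 0.556 in CuiYu, and KIN-7A, gene35268, averaged 0 CPM in SuCui NO.1, against 3.97 ± 1.58 in Akibae, 8.34 ± 9.78 in Nijisseiki and 2.57 ± 0.120 in CuiYu (adjusted p = 0.0025 and 0.0078). Of 224 heat shock and chaperone genes 3 were higher and 5 lower (1.34% and 2.23%). DnaJ homolog B7, gene29740, averaged 113 ± 77.01 CPM in SuCui NO.1, against 23.5 ± 9.94 in Akibae, 22.9 ± 8.35 in Nijisseiki and 25.8 ± 6.53 in CuiYu (adjusted p = 0.016), and its call was lost without SuCui NO.1 replicate 1, Akibae replicates 1 or 2, Nijisseiki replicate 2 or CuiYu replicates 1 or 2 (adjusted p from 0.0506 to 0.067). A DnaJ gene on an unplaced scaffold, gene40730, averaged 0.0248 ± 0.0429 CPM in SuCui NO.1, against 6.25 ± 0.858 in Akibae, 13.1 ± 3.19 in Nijisseiki and 8.30 ± 0.869 in CuiYu, a ratio of 246 to Akibae with a counting interval of 43.8 to 9762 (adjusted p = 1.8e-05).

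Of 304 ribosomal protein genes 3 were higher and 6 lower (0.99% and 1.97%, against 1.66% and 2.41% of all genes tested). The L3-1 gene on chromosome 14 had 9.71, 9.14 and 13.1 CPM in the SuCui NO.1 libraries, against 2.004, 2.79 and 1.88 in Akibae, 1.39, 2.24 and 2.17 in Nijisseiki and 1.25, 1.28 and 1.47 in CuiYu (adjusted p = 0.00082). The acidic protein P0, gene20274, averaged 0.0974 ± 0.0844 CPM in SuCui NO.1, against 5.64 ± 1.38 in Akibae, 10.8 ± 6.10 in Nijisseiki and 5.27 ± 1.08 in CuiYu (adjusted p = 0.00072), and the ubiquitin fusion L40-2, gene34524, averaged 0 CPM in SuCui NO.1, against 1.22 ± 0.332 in Akibae, 2.04 ± 0.358 in Nijisseiki and 2.35 ± 0.553 in CuiYu (at least 15.96-fold lower than in Akibae, adjusted p = 0.00043). Of 1322 genes of ubiquitin and proteolysis 23 were higher and 26 lower (1.74% and 1.97%). The F-box gene At3g56470 on chromosome 12, gene23099, averaged 6.92 ± 1.97 CPM in SuCui NO.1, against 0.105 ± 0.122 in Akibae, 0.0290 ± 0.0502 in Nijisseiki and 0.0464 ± 0.0804 in CuiYu (adjusted p = 0.0023), and the ubiquitin-conjugating enzyme variant 1D, gene4105, averaged 34.4 ± 3.19 CPM in SuCui NO.1, against 1.19 ± 0.232 in Akibae, 1.21 ± 0.612 in Nijisseiki and 1.06 ± 0.145 in CuiYu (adjusted p = 1.3e-05). The ubiquitin hydrolase 12 gene39432 averaged 0 CPM in SuCui NO.1, against 1.37 ± 0.470 in Akibae, 1.96 ± 0.469 in Nijisseiki and 1.14 ± 0.183 in CuiYu (at least 14.998-fold lower than in CuiYu, adjusted p = 0.00066). Of 24 transposon-derived genes tested 2 were higher and 3 lower (8.33% and 12.5%, in a small list).

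In some Swiss-Prot entries, copies were members in opposite directions. The members with a Swiss-Prot name fell into 652 entries, of which 48 held higher and lower members at once. Of these 48, 34 were held by 2 to 4 genes. These 34 were chosen for holding a higher and a lower gene, so counts added up over an entry partly cancel by that choice. Their summed log2 difference from the mean had a median size of 0.27 and a maximum of 0.63. SAL1 phosphatase is an example. Its copy gene27794 averaged 50.1 CPM in SuCui NO.1, against 5.32 in Akibae, 4.83 in Nijisseiki and 23.1 in CuiYu, while gene30762 averaged 0 CPM in SuCui NO.1, against 36.2 in Akibae, 30.9 in Nijisseiki and 23.2 in CuiYu. The tryptophan synthase beta copies gave 55.9 CPM in SuCui NO.1, against 9.84 in Akibae, 10.6 in Nijisseiki and 17.8 in CuiYu for gene22249, and 0 CPM in SuCui NO.1, against 28.2 in Akibae, 27.1 in Nijisseiki and 14.03 in CuiYu for gene20077. The lipoyl synthase copies gave 29.1 CPM in SuCui NO.1, against 14.5 in Akibae, 18.2 in Nijisseiki and 10.8 in CuiYu for gene39707, and 0 CPM in SuCui NO.1, against 28.02 in Akibae, 31.5 in Nijisseiki and 13.2 in CuiYu for gene41473. In each pair, 1 copy was higher in SuCui NO.1 than in each variety and the other had 0 reads there. The call of gene39707 was lost without SuCui NO.1 replicates 2 or 3 or Nijisseiki replicates 2 or 3 (adjusted p from 0.056 to 0.1) or with the replicate block (adjusted p = 0.0511).

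Most calls did not hold when all genes of 1 entry were added up, an alternative chosen after the data were seen. CPM of these sums are scaled to the reads in genes with an entry, so they run slightly above those of single genes. Of 295 higher members whose entry was held by several genes 25 kept their call in the sum, and of 419 such lower members 51 did. Over all entries, 41 were higher and 73 lower than in each variety, of 9427 tested. The calls of short-chain dehydrogenase reductase 3b, DMR6-like oxygenase 1, gibberellin 2-beta-dioxygenase 1, TEM1, NAC7 and P450 CYP734A1 held in the sum. Those of germacrene D synthase, Rubisco activase, beta-amyrin synthase and SAL1 phosphatase did not. Nor did those of RAP2-2, 12-oxophytodienoate reductase 3, ETHYLENE INSENSITIVE 3, cinnamoyl-CoA reductase 1, beta-carotene hydroxylase 2, pullulanase 1 and granule-bound starch synthase 1. Among the largest gaps, histidinol-phosphate aminotransferase, siroheme synthase 2, SRP54, the heme-binding-like protein and the entry of gene34681 also lost their calls. So did EARLY RESPONSIVE TO DEHYDRATION 15, calmodulin-binding transcription activator 2, CNGC10, SAC3, VPS54, tryptophan synthase beta chain 2 and lipoyl synthase. KOBITO 1, cellulose synthase subunit 2, monosaccharide-sensing protein 2 and SUC4 lost theirs too.

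**Figure D3:**
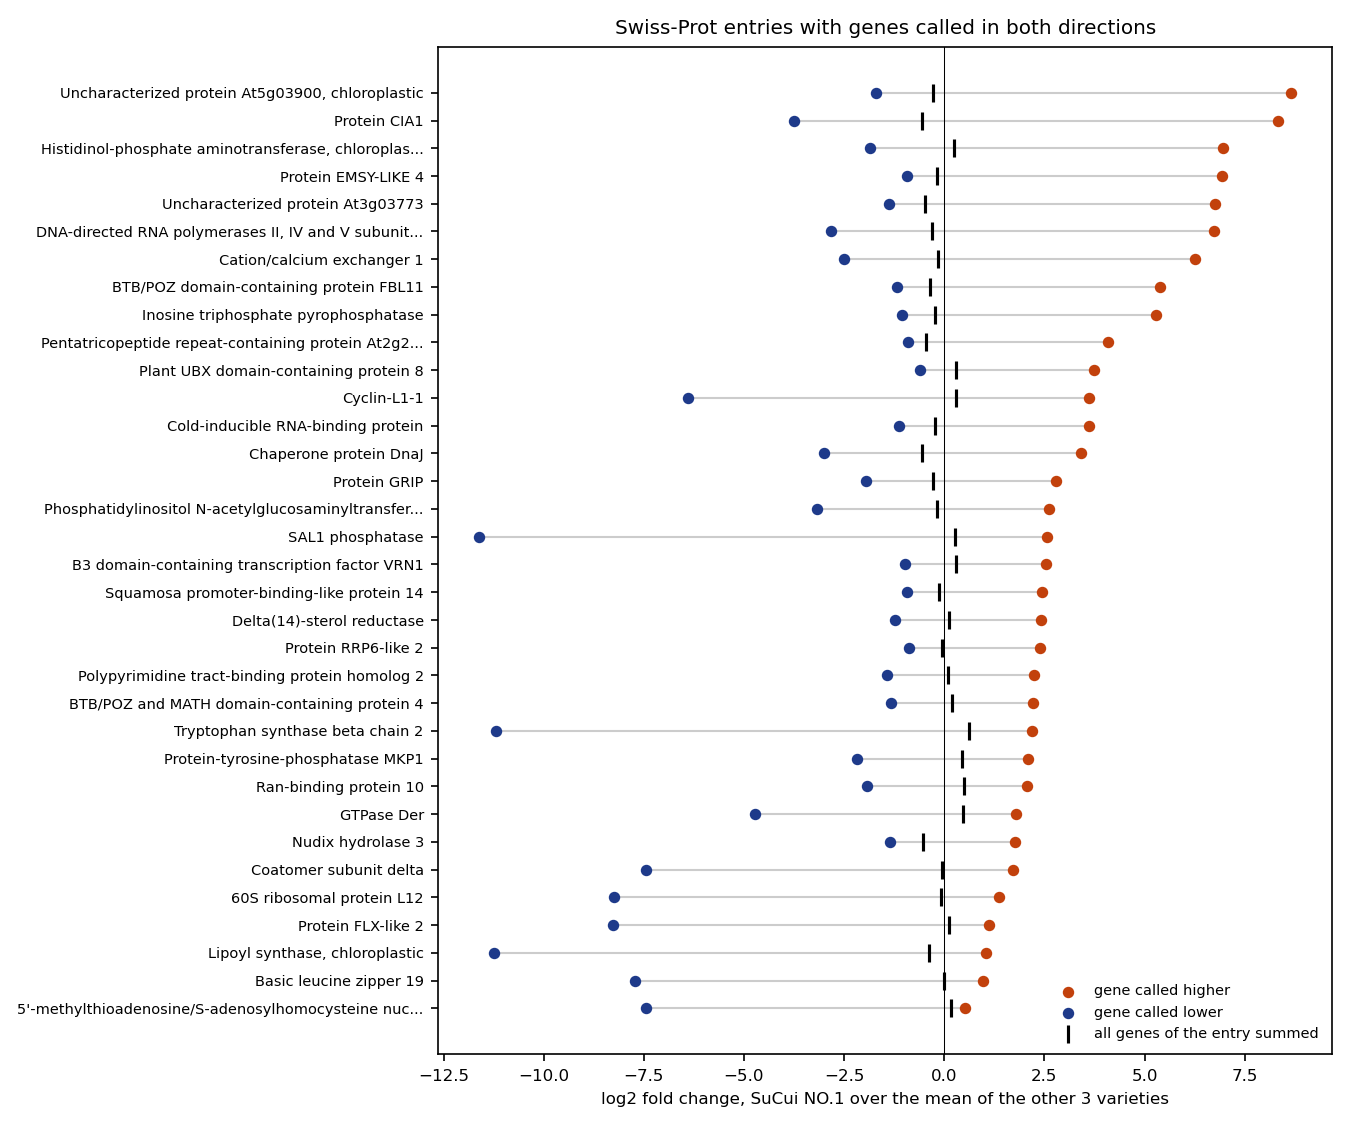
Log2 difference of SuCui NO.1 from the mean of the other 3 varieties for the 34 entries of 2 to 4 genes with members in both directions. Dots are the higher and the lower gene, black ticks the counts of all genes of the entry summed, which lie within 0.63 of 0. Fitted values of genes with 0 reads depend on the prior count and are no bound.

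The share of members differed between chromosomes, by coordinates as the deposited table gives them, and was highest on chromosome 12 in both directions. That chromosome held 53 higher (4.50%) and 64 lower (5.43%) of its 1178 tested genes, against 1.66% and 2.41% of all genes tested. Chromosome 17 held 25 higher and 62 lower of 1367 (4.54% lower), and chromosome 2 held 22 higher and 52 lower of 1477 (3.52% lower). Chromosome 10 held 43 higher and 22 lower of 1668 (2.58% and 1.32%). On unplaced scaffolds 53 were higher and 114 lower of 2949 (1.80% and 3.87%). On chromosome 12 the first 200 tested genes held 27 higher and 24 lower members, and the rest of its tested genes held 26 and 40.

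Members also lay side by side. In 107 of the 436 higher genes (24.5%) and 180 of the 634 lower genes (28.4%), an adjacent tested gene was a member in the same direction. The share of all genes tested with a member beside them is not given here, so these counts and the runs below have no background. There were 15 runs of 3 or more higher genes, which took in 53 genes, and 16 runs of lower genes, which took in 64. The longest run was 9 lower genes on chromosome 2 between 3136773 and 3228975, and it includes SAC3, NACK2 and KIN-7A. The longest higher run on chromosome 12 had 5 genes between 620620 and 659054, with the formin-interacting protein FIP2, XAP5 CIRCADIAN TIMEKEEPER, argininosuccinate lyase of arginine synthesis and an exosome subunit of the RRP6 type among them. The call of argininosuccinate lyase, gene16393, was lost with the replicate block (adjusted p = 0.054). The windows of 20 tested genes with most members held 13 lower and 0 higher genes, on chromosome 12 (1492803 to 1754356) and on chromosome 2 (3129699 to 3333915). Neighbouring members share a stretch of the genome, so they are not independent observations.

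**Figure D4:**
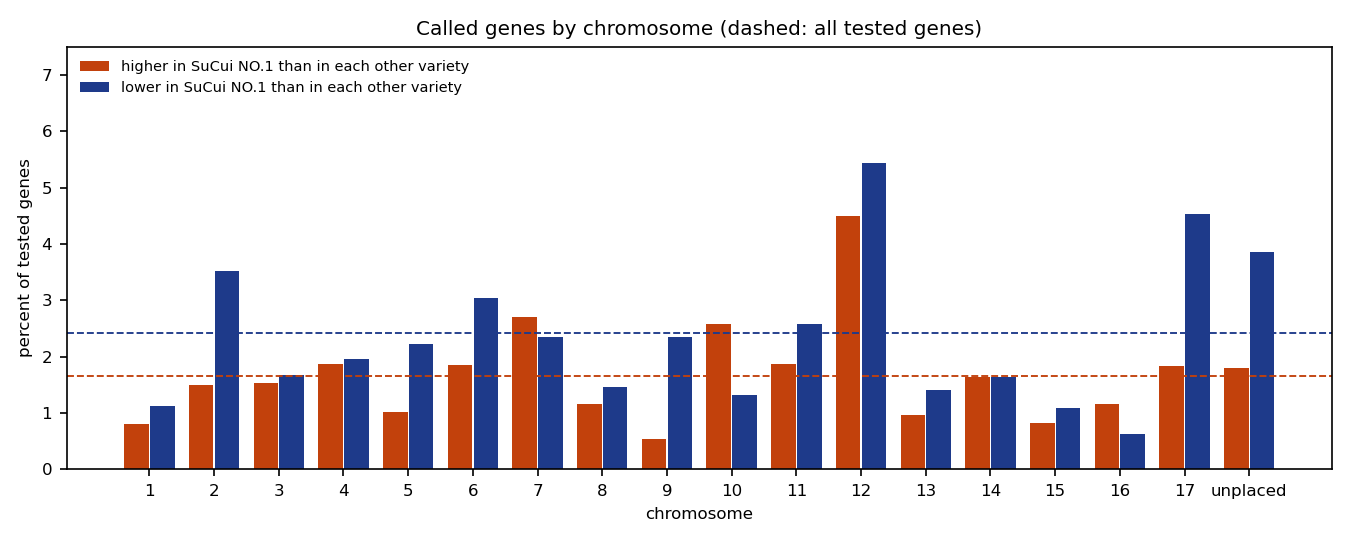
Bars give the percentage of the tested genes of each chromosome that were higher or lower in SuCui NO.1 than in each other variety, and dashed lines the shares over all genes tested (1.66% and 2.41%). Chromosome 12 stands highest in both directions, at 4.50% and 5.43%.

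**Figure D5:**
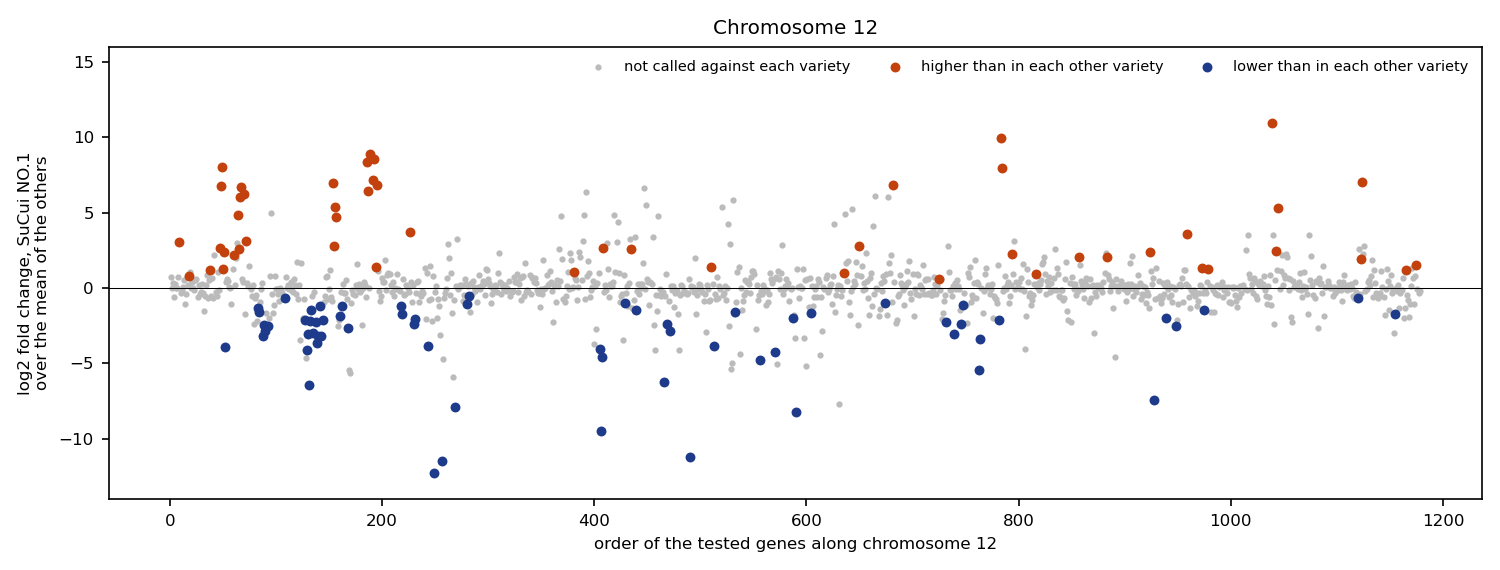
Log2 difference of SuCui NO.1 from the mean of the other varieties for the tested genes of chromosome 12 in their order along it, with members coloured by direction. Stretches of lower members and stretches of higher members alternate in the first 200 genes, which hold 27 higher and 24 lower members.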

How the data were processed

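Skin RNA of 4 pear varieties was sequenced in 12 libraries. The authors deposited 1 table with raw read counts per gene and library, which per the file headers are unnormalised and which hold whole numbers. It also holds FPKM values, which the authors computed from gene length and library total, per the file headers, and which were described here but not tested. The aligner, counting tool, strand setting and genome build were not given in the sources used here. Libraries held 11981445 to 15136559 reads, 8198 genes had no read in any, and 0 value columns were left without a sample.

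Genes were kept with filterByExpr by variety (26307 tested, 17425 not tested), scaled by TMM and fitted with 1 mean per variety over all 12 libraries in edgeR 4.0.16 (R 4.3.3), common biological coefficient of variation 0.41. SuCui NO.1 was compared with each variety and with the equally weighted mean on the log scale by the quasi-likelihood test, with Benjamini-Hochberg adjustment over all genes tested and a threshold of 0.05. CPM use TMM-scaled totals. P-values measure the spread between 3 biological replicates, and the procedure was tested on simulated data. The members, gene lists and rules were chosen with earlier results of these data known.

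Named genes had a Swiss-Prot name other than a transposon or uncharacterised entry, a mean of at least 1 CPM, a call in all 3 pairs in 1 direction and no overlap between SuCui NO.1 and the 9 other libraries. They were the 10 largest gaps per direction, 1 per entry, and up to 2 per gene list and direction. A list with none gave up to 1 per direction with the largest change against the mean. Ratios to a group with 1 to 3 reads carry an exact 95% interval, and 0 reads were set to a floor of 3 per variety. Both cover counting error only. Other genes are marked as chosen after their values were seen. Alternatives were DESeq2 1.42.0, other scaling and filters, the replicate number as a block, another estimate of the spread, another adjustment and each library left out. By the correlation of their deviations from the variety means, the 3 same-numbered pairs of SuCui NO.1 and Nijisseiki varied together (0.196 to 0.369), while those of SuCui NO.1 and Akibae (-0.218 to 0.029) and of SuCui NO.1 and CuiYu (-0.028 to 0.199) did so in 0 and 2 of 3 pairs above 0.1. The labels do not say that a number marks a shared origin.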

Additional observations from a re-analysis of the deposited data

How the results depend on the processing

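In every alternative run on single genes, 0 members were called in the opposite direction. DESeq2 size factors, no filter, or a minimum mean of 1 CPM moved the counts by less than 1.5 times. The counts of genes higher and lower than each variety were 213 and 383 when the largest p of the 3 pairs was adjusted once, and 244 and 260 when the spread came from the 2 varieties of each pair. DESeq2 gave 752 higher and 937 lower than each, and 3628 higher and 3051 lower than the mean. Summing the genes of each Swiss-Prot entry, an alternative added after the data were seen, gave 41 and 73. The sums covered 9427 entries, of which 0.43% were higher and 0.77% lower, against 1.66% and 2.41% of single genes. The causes of these shifts were not tested.

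Leaving out 1 library at a time gave 268 (without CuiYu replicate 2) to 735 (without Nijisseiki replicate 1) genes higher than each and 470 to 798 lower than each. Against the mean it gave 1795 (without SuCui NO.1 replicate 1) to 4169 higher and 1197 (without SuCui NO.1 replicate 1) to 2582 lower. Of the 99 genes of the naming rule called against each variety, 66 kept their call in all 12 fits. Of the same 99, 29 lost it when the largest p was adjusted once, 36 with the spread from each pair and 10 with the replicate block. The log2 difference of SRK2A (gene39836) from its nearest variety, which was not called, was -0.041 without SuCui NO.1 replicate 3 and reached 0.59 without SuCui NO.1 replicate 2.

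With the replicate number as a block, 387 genes were higher and 608 lower than each, of which 339 and 555 were called without it, and 2644 higher and 1975 lower than the mean. Among the Nijisseiki libraries, each SuCui NO.1 library varied most closely with that of its own number, which is a hint from the data and not from the labels. At these depths, a floor of 3 reads over 3 libraries was 0.0763 CPM in SuCui NO.1, against 0.0772 in Akibae, 0.0757 in Nijisseiki and 0.0728 in CuiYu, which bounds each fold against 0 reads.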
